A study of Mus musculus with 6 samples.

Results

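This account concerns 9 genes that make, bind and break down hyaluronan, measured in sorted epidermal cells of mouse embryos. The genes were given by name from their known roles: the synthases Has1, Has2 and Has3, the precursor enzyme Ugdh, the receptor Cd44, the hyaluronidases Hyal1 and Hyal2, and the degradation proteins Cemip and Tmem2, which carries the symbol Cemip2 here and below. All 9 were found among 35275 Ensembl identifiers in the deposited table.

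The samples were 6 RNA sequencing libraries of keratinocytes from CD1 IGS mouse back skin at E16.5 (embryonic day), 3 labelled control and 3 labelled K10rtTA;TREspastin (K10-spastin here). Dams received doxycycline chow from E14.5, and H2B-GFP-positive cells, which carry a nuclear fluorescent protein, were sorted from epidermis separated with dispase. In K10-spastin the keratin 10 promoter, active in suprabasal cells, controls the activator rtTA, which needs doxycycline to switch on the TRE-Spastin transgene for spastin, an enzyme that severs microtubules. Per the protocol the dams carried K10-rtTA, TRE-H2B-GFP and TRE-Spastin, and H2B-GFP marks the sorted cells of both groups. Which of the other transgenes the controls carried, and the number of embryos per library, are not given here by any label. The p-values therefore measure the spread between these libraries. Values are the authors' FPKM, which divide the fragments of a gene by its length and by the depth of the library.

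Of these 9 genes, Hyal2 was the only one that passed the test, and it rose in K10-spastin. Of 17 other settings 13 ended this call, among them leaving out any 1 library except K10-spastin 3. Under both other scalings Cemip2, and not Hyal2, was called higher and Ugdh was called lower. In K10-spastin Ugdh was 2.56-fold lower by the means of 3 libraries each, and Cd44 and Cemip2 were 1.74-fold and 1.87-fold higher. None of these 3 genes passed. Each had no overlap between groups, as had 40.4% of all genes tested, with K10-spastin lower in 24.8% and higher in 15.6%. Hyal1 and Cemip were high in some K10-spastin libraries and at the control level in another, while the synthase Has3 did not pass, and Has1 and Has2 were too low to test.

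Hyaluronan is a long, unbranched sugar polymer of alternating glucuronic acid and N-acetylglucosamine. Synthases in the plasma membrane build it from UDP-glucuronic acid and UDP-N-acetylglucosamine and push it out of the cell, where CD44 binds it at the cell surface. Hyaluronidases and related proteins cut it into fragments that are taken up and digested, so its amount depends on synthesis and turnover together. In the epidermis it fills the narrow spaces between living keratinocytes and is replaced quickly.

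Upstream sequence is shown for Cd44, Hyal1 and Cemip, since these genes and Hyal2 had the same order of levels among the 3 K10-spastin libraries. The order was looked for after the values were seen, and 11.2% of all genes tested had it. Cemip was tested only because of its level in K10-spastin 1 and so had to favour this order. The choice is therefore no evidence that these genes are controlled together. RefSeq promoter entries of build GRCm38.p6 matched 6 of the 9 genes, and those of Hyal2 and Ugdh overlapped annotated exons within the first 200 bases. Each stretch runs from 250 bases to 24 bases before the gene's start in the RefSeq table, which can differ from the start in GENCODE, 5′ to 3′ on the gene's strand, at chr2:102901689-102901915 (minus strand), chr9:107576700-107576926 (plus strand) and chr7:84086529-84086755 (minus strand) in the order printed. Capitals mark GC boxes.
Cd44: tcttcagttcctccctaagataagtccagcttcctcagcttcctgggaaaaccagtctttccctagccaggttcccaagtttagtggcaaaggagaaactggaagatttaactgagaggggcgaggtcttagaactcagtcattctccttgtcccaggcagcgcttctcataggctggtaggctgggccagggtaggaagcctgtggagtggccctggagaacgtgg
Hyal1: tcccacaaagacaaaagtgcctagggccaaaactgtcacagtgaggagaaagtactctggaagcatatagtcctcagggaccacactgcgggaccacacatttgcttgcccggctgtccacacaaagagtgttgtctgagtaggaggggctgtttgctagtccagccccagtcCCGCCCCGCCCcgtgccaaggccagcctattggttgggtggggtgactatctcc
Cemip: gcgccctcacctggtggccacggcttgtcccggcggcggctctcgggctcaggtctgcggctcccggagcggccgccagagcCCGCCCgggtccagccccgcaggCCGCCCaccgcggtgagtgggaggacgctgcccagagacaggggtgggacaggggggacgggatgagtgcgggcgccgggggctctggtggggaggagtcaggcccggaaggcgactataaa

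The letters of 4 motifs were searched on both strands of these 227-base stretches. The GC box, GGGCGG, was found in Hyal1 and Cemip with 2 matches each, those of Hyal1 overlapping each other by 1 base, and in 29.4% of all 32851 promoter entries over the same stretch. The AP-1 letters TGANTCA (6.28% of entries), the TEAD letters CATTCC (11.7%) and the E-box CACGTG (5.23%) were in none of the 3 stretches. None of the 4 motifs was in all 3 stretches. At shares of 5.23% to 29.4% of entries this outcome was likely for any 3 promoters, so nothing is concluded from it.

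Depths read from the step size of low values were 16.01 to 22.49 M (mega) fragments per library. Spast, the gene switched on, measured 21.2, 24.0 and 21.4 FPKM across controls 1 to 3 and 1431, 639 and 213 FPKM across K10-spastin 1 to 3. Among 8 spinous and suprabasal markers the highest means were those of Krt10 and Krt1, the keratin pair of these layers, and the summed level of the list was 57553 to 76014 FPKM in control and 40185 to 53614 FPKM in K10-spastin. Krt10 fell, with a log2 change of -0.81 ± 0.20 (limma adjusted p = 0.0438), and the other 7 were not called. The sum is led by Krt10 and Krt1, and not every member was lower: Sbsn and Dsc1, also of these layers, reached 2788 and 429 FPKM in K10-spastin and at most 1539 and 187 FPKM among the controls, with overlapping groups. Basal markers were also present, at a summed 4159 to 7255 FPKM in control and 2538 to 4781 FPKM in K10-spastin, led by Krt5 and Krt14. Of these 8 basal markers 2 fell, Dst and the keratin Krt15, where 5.9% of all genes tested were called lower. Krt15 measured 2095, 1237 and 1835 FPKM across controls 1 to 3 and 70.0, 449 and 261 FPKM across K10-spastin 1 to 3. Not every basal marker was lower. Krt14 and Itgb4 reached 2731 and 32.8 FPKM in K10-spastin 1, against at most 1833 and 22.6 FPKM among the controls. Their groups overlapped. The part of these shifts in the results below was not tested. All values come from sorted pools, so fewer cells of a type and less RNA per cell cannot be told apart.

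The comparison asks how transcript levels of these genes differ between suprabasal cells with and without induced spastin. A gene was tested where its mean over the 6 libraries was at least 1 FPKM, and called at a limma adjusted p under 0.05 over all 11071 genes tested. Of the 9 hyaluronan genes 7 were tested and Has1 and Has2 fell under the filter. Cemip reached the filter only through its level in K10-spastin. Of the 7 tested, 1 gene, Hyal2, was called higher and 0 were called lower. Among all genes tested 11% were called, 5.14% higher and 5.9% lower. At an unadjusted p under 0.05, 5 of the 7 tested genes passed, as did 31.5% of all genes tested. The groups did not overlap in 4 of the 7, against 40.4% of all genes tested, with K10-spastin higher in 3 (15.6% of all) and lower in 1 (24.8%). Log2 changes below are K10-spastin minus control of log2(FPKM + 1), a scale that shrinks the changes of weakly expressed genes. Where ± follows a log2 change, it gives the SE. The median log2 change of all genes tested was -0.09.

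**Figure D1:**
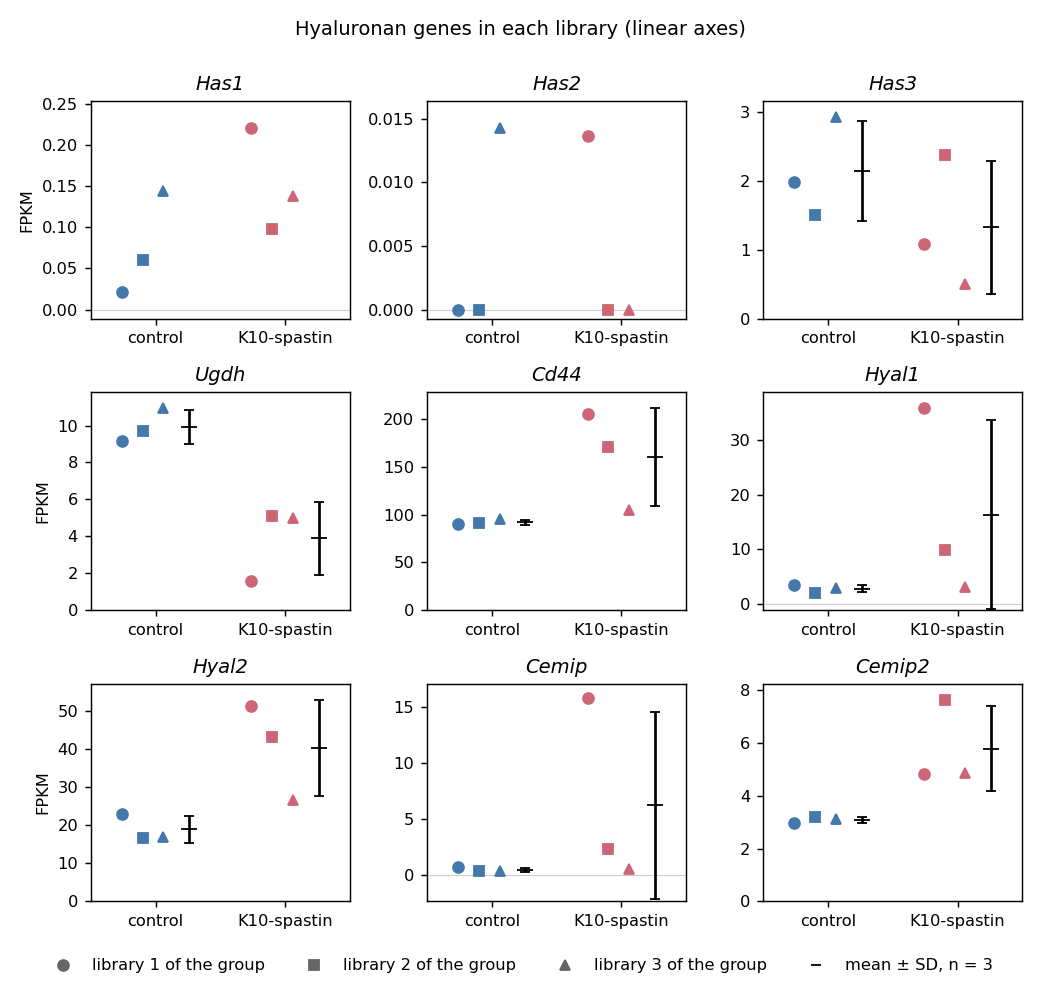
FPKM of the 9 hyaluronan genes in each library on linear axes, with controls in blue, K10-spastin in red, and the mean ± SD of 3 libraries in black for the 7 tested genes. Hyal2, Cd44 and Cemip2 lay higher in every K10-spastin library than in any control and Ugdh lay lower, while K10-spastin 3 sat near the controls in Hyal1 and Cemip.

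Of the synthases, Has3, a synthase of keratinocytes, held most of the signal, and its level was low. Has3 (ENSMUSG00000031910) measured 1.99, 1.5 and 2.92 FPKM across controls 1 to 3 and 1.08, 2.38 and 0.509 FPKM across K10-spastin 1 to 3. The groups overlapped, since K10-spastin 2 was above 2 of the controls. The log2 change was -0.49 ± 0.33 (limma adjusted p = 0.355), with a 95% confidence interval of -1.27 to 0.29. It was -0.80 without K10-spastin 2, -0.22 without K10-spastin 3 and -0.32 without control 3, with adjusted p-values of 0.133, 0.684 and 0.667. These levels rest on 33 to 181 fragments per library, taken as the smallest whole numbers that give the deposited values in all 6 libraries. In GENCODE release M21 the Has3 exons share 352 bases, 5.52% of their length, with Chtf8 on the opposite strand. Chtf8, a subunit of a clamp-loading complex of DNA replication, stood at 23.0 to 49.1 FPKM over the 6 libraries. No source used here gives the strandedness of the counting, so reads of the shared bases cannot be told apart, and their part in the Has3 level was not tested.

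Has1 and Has2 were near the limit of detection. Has1 (ENSMUSG00000003665) measured 0.0213, 0.0598 and 0.145 FPKM across controls 1 to 3 and 0.221, 0.0978 and 0.138 FPKM across K10-spastin 1 to 3, values that correspond to as few as 1, 2 and 5 fragments and 8, 4 and 5 fragments. The groups overlapped at these counts. Has2 (ENSMUSG00000022367), the synthase that the embryo needs for heart development and that dermal fibroblasts express, was listed at 0 in 4 libraries and had 1 fragment each in control 3 and K10-spastin 1. At this depth no difference in Has1 or Has2 was detectable.

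The 3 synthases together summed to 2.01, 1.56 and 3.08 FPKM across controls 1 to 3 and 1.31, 2.48 and 0.646 FPKM across K10-spastin 1 to 3. An exact two-sided permutation test of the log2 sums gave p = 0.4, where 3 against 3 libraries cannot give less than 0.1. Has3 made up 98.9%, 96.2% and 94.9% of the sum in controls 1 to 3 and 82.2%, 96.1% and 78.7% in K10-spastin 1 to 3. K10-spastin 2 thus lay between the controls in this share, and the exact permutation test gave p = 0.2, and 0.3 with Benjamini-Hochberg adjustment over the 3 synthases. The libraries with the lower shares, K10-spastin 1 and 3, had 70 and 33 fragments of Has3 and 8 and 5 of Has1, against 181 and 5 in control 3.

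Ugdh (ENSMUSG00000029201), the dehydrogenase that oxidises UDP-glucose to UDP-glucuronic acid, was lower in every K10-spastin library. It measured 9.16, 9.69 and 10.9 FPKM across controls 1 to 3 and 1.58, 5.09 and 4.98 FPKM across K10-spastin 1 to 3. The groups did not overlap, and K10-spastin 1, the library with the highest Spast, had the lowest Ugdh. The group means were 9.93 ± 0.913 and 3.88 ± 2.0 FPKM (SD, n = 3), and the log2 change was -1.26 ± 0.34 (limma adjusted p = 0.0571), just outside the threshold. Without K10-spastin 1 the change was -0.85 and was called (limma adjusted p = 0.0222). Ugdh was also called lower under both other scalings and with array weights, at adjusted p-values of 0.00834 to 0.0478. A transcript of Gm14603 matches Ugdh at 92.4% identity over 448 bases, so some of its reads may be split between them.

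The wider supply of sugar precursors was given by a list of 20 enzymes and transporters, of which 18 were tested, 1 rose and 0 fell. The list's median log2 change was 0.07, its changes ran from -0.43 to 1.41, and 5.56% of its tested genes were called, against 11% of all. The gene that rose was Gfpt1, the first and rate-limiting enzyme of the route to UDP-N-acetylglucosamine. Gfpt1 measured 11.5, 10.6 and 10.03 FPKM across controls 1 to 3 and 34.0, 26.0 and 16.4 FPKM across K10-spastin 1 to 3, with a log2 change of 1.12 ± 0.26 (limma adjusted p = 0.0370). The values of Gfpt1 were thus higher in every K10-spastin library, where those of Ugdh were lower. The most abundant genes of the list were glycolytic. Gpi1, the glucose phosphate isomerase, had a log2 change of 0.23 ± 0.14 (limma adjusted p = 0.295). Hexokinase 2, Hk2, measured 163, 123 and 126 FPKM across controls 1 to 3 and 769, 343 and 180 FPKM across K10-spastin 1 to 3 (limma adjusted p = 0.0901).

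Cd44 (ENSMUSG00000005087), the main hyaluronan receptor of keratinocytes, had the highest level of the 9 genes in both groups. It measured 90.5, 91.0 and 95.3 FPKM across controls 1 to 3 and 206, 170 and 105 FPKM across K10-spastin 1 to 3. The controls lay close together, the K10-spastin libraries spread widely, and the lowest of them was still above the highest control. With means of 92.2 ± 2.64 and 160 ± 51.0 FPKM (SD, n = 3), the log2 change was 0.74 ± 0.24 and its 95% confidence interval ran from 0.19 to 1.29 (limma adjusted p = 0.0822). Without K10-spastin 3 the change was 1.01 and was called (limma adjusted p = 0.0110). The table has 1 value per gene, so the standard and variant splice forms of Cd44 cannot be told apart.

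Of 22 genes for cytoskeletal linkers, shedding proteases and their inhibitors, and splicing factors linked to CD44, 16 were tested, 1 rose and 1 fell. The list's median log2 change was -0.10, and 12.5% of its tested genes were called, against 11% of all. Timp3, a matrix-bound inhibitor of metalloproteases and sheddases, measured 1.64, 4.22 and 3.84 FPKM across controls 1 to 3 and 48.5, 21.3 and 15.6 FPKM across K10-spastin 1 to 3, and rose by 2.70 ± 0.44 on the log2 scale (limma adjusted p = 0.0161). Ank3, an ankyrin that ties membrane proteins to the spectrin skeleton, fell, from 31.7, 37.4 and 34.1 FPKM to 23.8, 20.7 and 21.9 FPKM, with a log2 change of -0.61 ± 0.14 (limma adjusted p = 0.0346). Ezrin, Ezr, which links CD44 to actin, and Esrp2, an epithelial splicing factor, were the most abundant, with log2 changes of -0.11 ± 0.15 and -0.18 ± 0.15 (limma adjusted p = 0.669 and 0.455).

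Hyal2 (ENSMUSG00000010047), a hyaluronidase anchored at the cell surface that cuts long hyaluronan into intermediate fragments, rose. It measured 23.0, 16.8 and 16.9 FPKM across controls 1 to 3 and 51.3, 43.2 and 26.6 FPKM across K10-spastin 1 to 3. All K10-spastin libraries were above all controls, with K10-spastin 3 the closest to them. The means were 18.9 ± 3.56 and 40.4 ± 12.6 FPKM (SD, n = 3), a 2.14-fold difference, and the log2 change was 1.02 ± 0.26 (limma adjusted p = 0.0486). This p is close to the threshold, and 13 of 17 other settings ended the call, with adjusted p-values of 0.0144 to 0.162 over all of them and log2 changes of 0.78 to 1.29. Without control 1, 2 and 3 in turn the adjusted p was 0.0790, 0.158 and 0.162, without K10-spastin 1 and 2 it was 0.0769 and 0.104, and without K10-spastin 3 it was 0.0144.

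Hyal1 (ENSMUSG00000010051), the lysosomal hyaluronidase that digests the fragments, differed between K10-spastin libraries by more than between groups. It measured 3.37, 2.07 and 2.85 FPKM across controls 1 to 3 and 35.9, 9.94 and 3.06 FPKM across K10-spastin 1 to 3. K10-spastin 3 lay within the range of the controls, and the other K10-spastin libraries lay above it. The log2 change was 1.66 ± 0.71, with a 95% confidence interval of 0.00417 to 3.33 (limma adjusted p = 0.158), and without K10-spastin 3 it was 2.43 (adjusted p = 0.0292). Without K10-spastin 1 it was 0.84 (adjusted p = 0.226). In GENCODE release M21 the Hyal1 exons share 1920 bases, 50.8% of their length, with Naa80 on the same strand. Naa80, the acetyltransferase that modifies the start of actin, measured 8.22, 5.31 and 6.62 FPKM across controls 1 to 3 and 47.0, 19.6 and 6.80 FPKM across K10-spastin 1 to 3, a like pattern. Reads of the shared bases cannot be assigned to either gene, so the values of Hyal1 and Naa80 are uncertain and are not independent of each other.

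Of 9 other hyaluronidases and lysosomal enzymes that trim the sugar chain, 8 were in the table under these symbols and 3 were tested, of which 0 were called by limma, 0 of them with an unadjusted p under 0.05. Hyal3, which lies beside Hyal1 and shares 159 exon bases with it, measured 1.65, 1.47 and 1.55 FPKM across controls 1 to 3 and 1.93, 1.13 and 1.52 FPKM across K10-spastin 1 to 3, so its groups overlapped. The beta-glucuronidase Gusb had a log2 change of 0.09 ± 0.25 (limma adjusted p = 0.843).

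Cemip (ENSMUSG00000052353), a hyaluronan-binding protein that fibroblasts need to break down hyaluronan, measured 0.662, 0.320 and 0.366 FPKM across controls 1 to 3 and 15.9, 2.31 and 0.496 FPKM across K10-spastin 1 to 3. K10-spastin 3 again lay among the controls, while K10-spastin 1 was far above every other library. The fragments behind these values numbered at least 64, 22 and 26 in the controls and 1183, 194 and 37 in K10-spastin, so the difference between libraries is far above counting error. The log2 change was 1.6 ± 0.78 (limma adjusted p = 0.208). Without K10-spastin 1 it was 0.63 (adjusted p = 0.283), and without K10-spastin 3 it was 2.37 (adjusted p = 0.0581).

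Cemip2 (ENSMUSG00000024754), a membrane protein related to Cemip that has been described as a cell-surface hyaluronidase, had another pattern. It measured 2.95, 3.18 and 3.12 FPKM across controls 1 to 3 and 4.83, 7.63 and 4.85 FPKM across K10-spastin 1 to 3. The controls were nearly equal, every K10-spastin library was above them, and the highest was K10-spastin 2 and not K10-spastin 1. The log2 change was 0.71 ± 0.21, with a 95% confidence interval of 0.20 to 1.21 (limma adjusted p = 0.0736). Cemip2 was called higher under median-of-ratios scaling, quantile normalization and array weights, at adjusted p-values of 0.0241 to 0.0334.

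**Figure D2:**
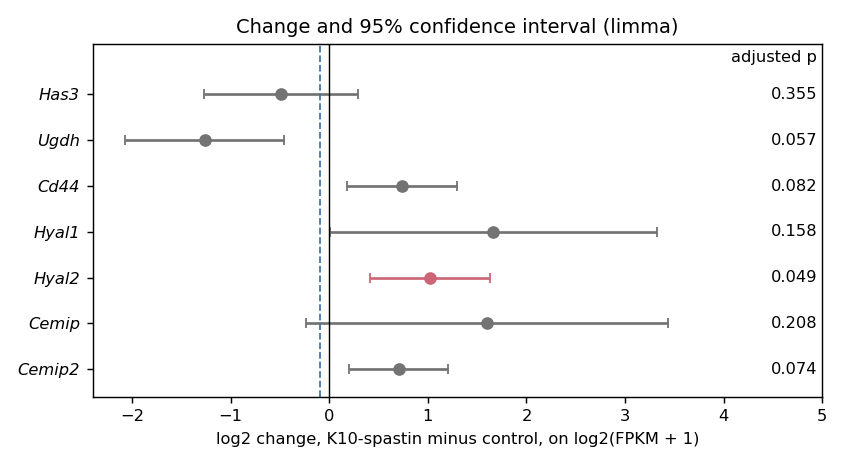
Log2 change of the 7 tested hyaluronan genes, K10-spastin minus control, as points with 95% confidence intervals from limma, with the adjusted p at the right, Hyal2 in red and the median of all genes tested, -0.09, as a dashed line. The intervals of Hyal1 and Cemip are the widest and those of Cemip2 and Cd44 the narrowest.

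Ordered by FPKM, which is scaled by gene length, the control levels ran from Cd44 through Hyal2, Ugdh, Cemip2, Hyal1, Has3 and Cemip to Has1 and Has2. The levels of Cemip2, Hyal1 and Has3, at 3.08 ± 0.120, 2.76 ± 0.654 and 2.14 ± 0.722 FPKM (SD, n = 3), overlapped from each gene to the next. In K10-spastin Cd44 and Hyal2 stayed first, Hyal1 and Cemip followed at 16.3 ± 17.3 and 6.23 ± 8.40 FPKM, and Cemip2 and Ugdh came next at 5.77 ± 1.61 and 3.88 ± 2.0 FPKM (SD, n = 3). Among these last 4 genes no neighbours differed beyond the spread.

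The K10-spastin libraries were not alike. Spast was highest in K10-spastin 1 and lowest in K10-spastin 3, and Cd44, Hyal1 and Hyal2 had the same order of levels, which 11.2% of all genes tested had. Cemip had it too, but reached the filter through K10-spastin 1 and so had to favour it. This order was looked for after the values were seen, rests on 3 libraries, and is given as a description. K10-spastin 1 exceeded the control mean by 3.55 in Cemip, 3.31 in Hyal1, 1.41 in Hyal2 and 1.15 in Cd44 on the log2 scale. For K10-spastin 3 the same distances were 0.05, 0.13, 0.49 and 0.19. For Ugdh the distances were -2.08 in K10-spastin 1 and -0.84 and -0.87 in K10-spastin 2 and 3. K10-spastin 1 also differed in scale, with a median-of-ratios factor of 0.811 against 1.01 to 1.08 in the other 5 libraries, and the part of this in the order of the levels was not tested.

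**Figure D3:**
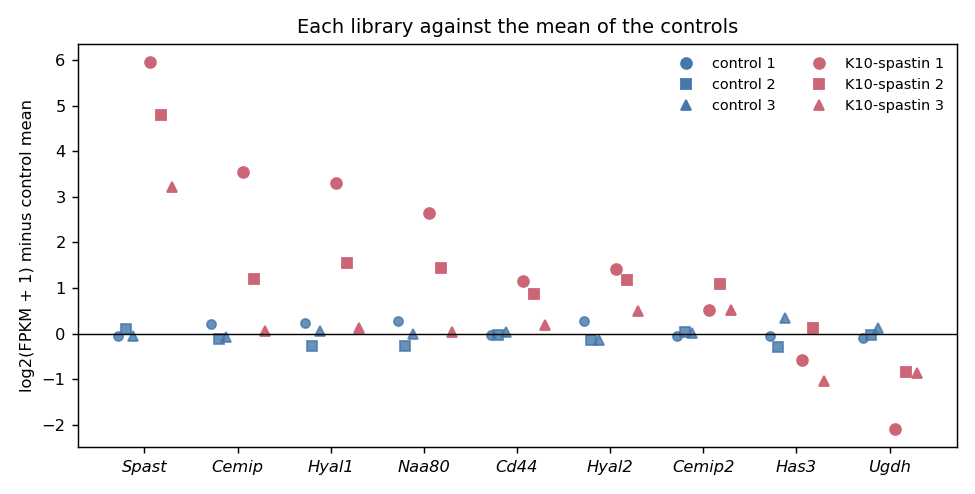
Log2(FPKM + 1) of each library minus the mean of the controls, for Spast, Naa80 and the 7 tested hyaluronan genes, with controls in blue and K10-spastin in red. Circles mark library 1, squares library 2 and triangles library 3. The circles of K10-spastin 1 lie at 3.55 in Cemip and 3.31 in Hyal1, where the triangles of K10-spastin 3 lie at 0.05 and 0.13.

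Other proteins that bind hyaluronan were mostly below the filter. Of 27 other receptors, link proteins and matrix or plasma binders, 6 were tested, 0 rose and 1 fell. Of those tested 16.7% were called, against 11% of all genes tested, and the list's median log2 change was -0.12. The gene that fell was Habp4, named for binding hyaluronan and known mainly as an intracellular RNA-binding protein. Habp4 measured 11.1, 9.84 and 10.8 FPKM across controls 1 to 3 and 2.40, 4.28 and 5.82 FPKM across K10-spastin 1 to 3, with a log2 change of -1.22 ± 0.27 (limma adjusted p = 0.0335). Stab1, a scavenger receptor, measured 39.5, 37.1 and 44.2 FPKM across controls 1 to 3 and 112, 33.2 and 28.4 FPKM across K10-spastin 1 to 3, where only K10-spastin 1 was above the controls (limma adjusted p = 0.773). The receptor phosphatase Ptprs had a log2 change of -0.46 ± 0.44 (limma adjusted p = 0.509).

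Of 24 genes known to act on the synthases, among them ligands of the EGF receptor and retinoid receptors, 17 were tested and 0 were called by limma, with 4 at an unadjusted p under 0.05, where 31.5% of all genes tested passed. Their median log2 change was -0.01, with a range of -0.80 to 1.80. The most abundant were the retinoid receptors Rxra and Rarg, with log2 changes of -0.61 ± 0.19 and 0.08 ± 0.15 (limma adjusted p = 0.0767 and 0.755).

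**Figure D4:**
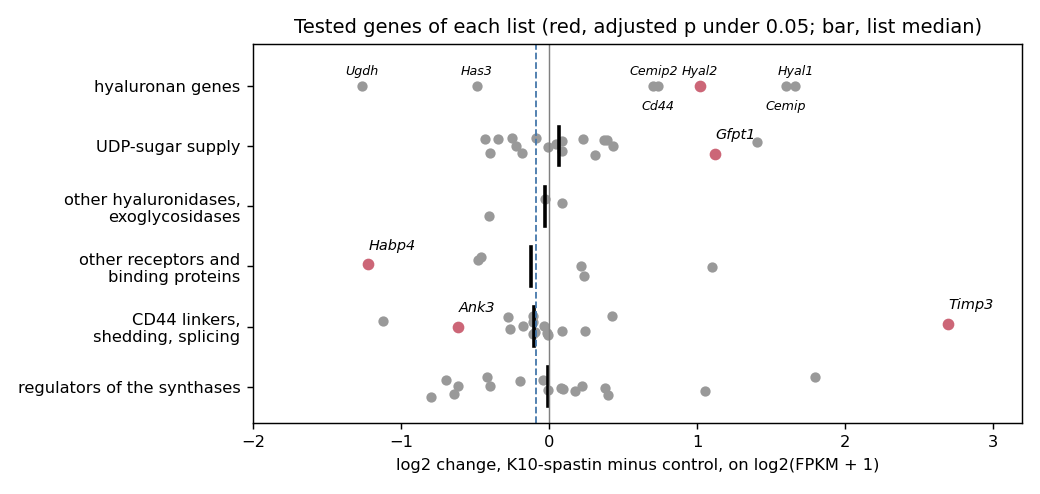
Log2 change of every tested gene of the hyaluronan genes and of 5 related lists, with called genes in red, a black bar at the median of each related list and a dashed line at the median of all genes tested, -0.09. Gfpt1, Habp4, Ank3 and Timp3 are the called genes of the related lists, and the list medians lie between -0.12 and 0.07.

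The genes whose pattern over the 6 libraries was nearest to that of Hyal2 and of Ugdh, the 2 hyaluronan genes with the smallest p, were found by the root mean square distance of log2 values, each centred on its own mean, among 10421 tested genes with official symbols. Nearest to Hyal2 were Homer3, a scaffold protein of synapses and other junctions, at a distance of 0.07, Fam219a at 0.11 and Gfpt1 at 0.12. Homer3 measured 8.31, 6.04 and 6.05 FPKM across controls 1 to 3 and 17.1, 15.4 and 9.45 FPKM across K10-spastin 1 to 3, with control 1 the highest control, as in Hyal2. Nearest to Ugdh were Tfdp2, a partner of the E2F cell cycle factors, at 0.06, Zfp618 at 0.08 and the sialomucin Podxl2 at 0.08. Tfdp2 measured 4.53, 4.66 and 5.0 FPKM across controls 1 to 3 and 0.449, 2.44 and 2.25 FPKM across K10-spastin 1 to 3.

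Other cells of skin also express several of these genes, above all fibroblasts. Of 9 fibroblast markers 6 were tested, 0 rose and 1, Dcn, fell, where 5.9% of all genes tested were called lower. Their summed level, mostly Postn, was 190 to 309 FPKM in control and 68.7 to 182 FPKM in K10-spastin. Col5a1, next in mean level, measured 9.30 to 13.5 FPKM in control and 10.2 to 47.0 FPKM in K10-spastin, with overlapping groups. Col1a1 measured 0.724, 8.42 and 13.3 FPKM across controls 1 to 3 and at most 0.0647 FPKM in K10-spastin. Col3a1 measured 0.517, 4.60 and 8.25 FPKM across controls 1 to 3 and at most 0.191 FPKM in K10-spastin. Col1a2 was 0.733 to 5.52 FPKM in control and 0.128 to 0.592 FPKM in K10-spastin. None of these was called, but each lay lower without overlap, as did 24.8% of all genes tested. Pdgfra was at most 0.05 FPKM and Twist2 at most 0.03 FPKM in every library. The 7 endothelial and pericyte markers summed to at most 0.759 FPKM and the 9 immune markers to at most 5.37 FPKM, with Cd3e and Cd207 at 0 in all libraries. The 6 melanocyte markers summed to 3.38 to 16.1 FPKM in control and 1.28 to 23.3 FPKM in K10-spastin. Red cell markers summed to 331 FPKM in control 3, the control with the highest Has3, and to 3.79 to 76.4 FPKM in the other 5 libraries. Of 7 periderm markers 6 were tested and 2 rose, where 5.14% of all genes tested were called higher. The 2 were Grhl3 and Krt6a, which is also a stress keratin. The sum of the list was 1822 to 2353 FPKM in control and 2787 to 8690 FPKM in K10-spastin. Other members of that list had lower means in K10-spastin and were not called: the simple keratin Krt19 measured 0.996, 9.29 and 10.5 FPKM across controls 1 to 3 and 2.11, 0.989 and 1.94 FPKM across K10-spastin 1 to 3, Krt8 was 1.35 to 3.28 FPKM among the controls and 0.821 to 1.02 FPKM among the K10-spastin libraries, and Krt4 reached 6.49 FPKM among the former and 0.892 FPKM among the latter. The periderm sum, led by Sfn and Krt6a, was highest in K10-spastin 1 and lowest of the group in K10-spastin 3, as were Hyal2 and Cd44. Levels went down from K10-spastin 1 through 2 to 3 in 11.2% of all genes tested. Sfn, Krt6a and Grhl3 had this order, and Krt4, Krt8, Krt18 and Krt19 did not. The part of these lists in the results was not tested.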

How the data were processed

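Libraries of 3 control and 3 K10-spastin samples were compared. FPKM were computed and deposited by the authors, and CASAVA and TopHat2 are named without versions in the submitters' processing notes. For the counter, genome build, annotation and strandedness the sources used here give nothing. A table of gene names matched 34490 of 35275 identifiers. Depth was read from the commonest step of low values in 14953 genes with 1 transcript, and 90.6% to 91.6% of values up to 20 fragments were whole within 0.05. Fragments of single genes are the smallest numbers whole within 0.02 in all libraries, and count tests were left out.

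The 11071 genes whose 6 libraries averaged 1 FPKM or more were tested on log2(FPKM + 1) with limma 3.58.1 in R 4.3.3 (lmFit, eBayes with a trend, two-sided, Benjamini-Hochberg adjustment), without covariates, after a check on simulated data. The genes, lists and tests were chosen with earlier results of these data known. All 9 genes were named, with up to 4 called genes of smallest p and the 2 highest means of each related list, the 2 highest means of each marker list, and Spast and Krt10. The markers Dcn, Col1a1, Col1a2, Col3a1, Pdgfra, Twist2, Cd3e, Cd207, Krt4, Krt8, Krt18, Krt19 and Grhl3 lie outside that rule. So do Sbsn, Dsc1, Krt15, Dst, Itgb4, Hmmr and the neighbours Naa80, Chtf8 and Hyal3. Not all genes the rule names are reported. Other settings were pseudocounts of 0.1 and 0.5, filters at 0 and 5 FPKM, 2 scalings, 3 variance models, the replicate number as a block, a fold of at least 2, and libraries left out. Copies were sought with BLAST 2.17.0 (90% or more identity over 200 or more bases). Figures used matplotlib 3.10.9.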

Additional observations from a re-analysis of the deposited data

How the results depend on the processing

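With 3 libraries a group, the spread of the K10-spastin libraries sets the precision, and Has1 and Has2 are limited by depth. None of the 7 tested hyaluronan genes changed direction under any alternative. Over all genes tested, 569 were higher and 653 lower; the counts were 319 and 348 with no filter, 1535 and 1771 with array weights, and 423 lower with a fold of at least 2 or 414 lower with a filter at 5 FPKM. Leaving out 1 library gave 113 to 691 higher and 32 to 701 lower. No label says that the replicate numbers pair the samples. Deviations of same-numbered libraries from their group means correlated at -0.13, -0.38 and -0.05, and 0 of 3 controls correlated best with its own number. With 3 libraries a group, this check cannot decide whether the samples are paired. With the replicate block 274 genes were higher and 218 lower, and 0 hyaluronan genes were higher.

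Of the hyaluronan genes, 0 were higher with a pseudocount of 0.1, no filter, a filter at 5 FPKM, no trend, or without control 1 and K10-spastin 1 together, and 2 with array weights, Cemip2 and Hyal2. The 1 gene higher under median-of-ratios scaling or quantile normalization was Cemip2 and not Hyal2. Leaving out 1 library gave 0 to 3 higher, the 3 being Cd44, Hyal1 and Hyal2 without K10-spastin 3. One was lower, Ugdh, under median-of-ratios scaling, quantile normalization, array weights, and without K10-spastin 1, alone or with control 1, and leaving out 1 library gave 0 to 1.

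The log2 change of Hyal2, no longer called, was 1.06 with a pseudocount of 0.1, 1.02 with no filter, a filter at 5 FPKM, no trend or the replicate block, 1.16 under median-of-ratios scaling, 1.00 under quantile normalization and 0.97 without control 1 and K10-spastin 1 together, and 0.83 to 1.29 with 1 library left out, where it was called only without K10-spastin 3. Ugdh was called at -1.15 under median-of-ratios scaling, -1.12 under quantile normalization, -0.95 with array weights and -0.91 without control 1 and K10-spastin 1 together, and ran from -1.47 to -0.85 with 1 library left out. Cemip2 was called at 0.82, 0.87 and 0.62 under the first 3 of these. With 1 library left out Cd44 ran from 0.53 to 1.01 and Hyal1 from 0.84 to 2.43, and the share of Has2 in the synthase sum differed by -0.15 to 0.36 percentage points. Where a call was lost or gained the cause was not tested, apart from the fewer libraries or genes in some fits.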
